A study of Mus musculus with 3 samples.

Results

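The genes described here are 10 genes of antigen presentation, 5 of the class I pathway (H2-K1, H2-D1, B2m, Tap1 and Psmb8) and 5 of the class II pathway (H2-Aa, H2-Ab1, H2-Eb1, Cd74 and Ciita). They were taken by name from a table of 27179 genes, listed by Entrez identifier, and all 10 were found. Mouse bone marrow stromal cells of wild-type genotype were grown at 3% oxygen and treated for 3 days with extracellular vesicles, membrane particles released by cells, from the bone marrow plasma of C57BL/6N mice aged 6 months. The control vesicles, All-EV, were from wild-type mice. Ocn-EV vesicles came from CAGS-Snorkel mice crossed with Ocn-Cre, a driver active in mature osteoblasts, and Prx1-EV vesicles from CAGS-Snorkel mice crossed with Prx1-Cre, a driver active in limb mesenchyme and its descendants. In each group the plasma of 5 mice (2 male, 3 female) was pooled before vesicles were isolated on magnetic beads with an HA antibody. How wild-type vesicles were retained in this step is not stated in the labels.

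There was 1 library per group, so no gene has a p-value and differences between libraries cannot be set against replicate spread. Reads assigned to genes numbered 15558165 with All-EV, 14233978 with Ocn-EV and 17269204 with Prx1-EV. "Level" means the deposited normalised read count, and 1 read was worth 1.13, 1.04 and 0.872 of it in the 3 libraries. "Treated libraries" means those of Ocn-EV and Prx1-EV, although the All-EV culture was also treated with vesicles. A log2 ratio compares single libraries after adding 1 to each level. Ranges in brackets after a ratio are 95% intervals from the recovered reads, and they cover counting error only. Summaries over genes used the 11067 genes whose mean level over the libraries reached 50. The labelled cell type was only part of what the libraries held. The 9 stromal markers took 0.0816%, 0.528% and 0.344% of reads across All-EV, Ocn-EV and Prx1-EV, and 10 macrophage markers took 1.30%, 0.933% and 0.796%. The macrophage share is set by its most abundant marker, Lyz2 (123980, 49971 and 46480 of 202557, 132855 and 137396 reads), while 7 of the 10 markers were higher in both treated libraries than in All-EV by their intervals.

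Class I molecules are carried by nearly all nucleated cells. A heavy chain such as H2-K1 or H2-D1 folds with beta-2 microglobulin (B2m) around a peptide that the proteasome has cut and the Tap1-Tap2 transporter has moved into the endoplasmic reticulum. Class II molecules are made mainly by dendritic cells, B cells and macrophages. Their alpha and beta chains (H2-Aa with H2-Ab1, for example) are escorted by the invariant chain Cd74, and the coactivator Ciita switches the whole group on, in many cells after interferon gamma. NLRC5 (Nlrc5) has the corresponding role for class I genes.

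Of the 10 genes, 7 lie in the H2 complex of chromosome 17 in build GRCm38, the build named mm10 in the submitters' processing notes: H2-K1 (chr17:33996012-34000619), Tap1 (chr17:34187556-34197225), Psmb8 (chr17:34198195-34201454), H2-Ab1 (chr17:34263227-34269418), H2-Aa (chr17:34282744-34287823), H2-Eb1 (chr17:34305867-34316674) and H2-D1 (chr17:35263094-35267497). B2m (chr2:122147687-122153082), Ciita (chr16:10480014-10531064) and Cd74 lie on other chromosomes.

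The RefSeq promoter table of GRCm38.p6 held 7 of the 10 genes and had no entry for H2-Ab1, Cd74 and Ciita. The 250 bases before the start used in that table are shown for B2m, the class I gene of the 5 farthest below All-EV, and for the class II chains H2-Aa and H2-Eb1, which were near 0 reads. Each is given 5′ to 3′ on the strand of its gene, with matches to the motifs searched in capitals. The H2-K1 and H2-D1 windows are not printed. The H2-K1 window (chr17:34000348-34000597) lies within the annotated span of H2-K1 given above.
B2m (chr2:122147437-122147686, plus strand): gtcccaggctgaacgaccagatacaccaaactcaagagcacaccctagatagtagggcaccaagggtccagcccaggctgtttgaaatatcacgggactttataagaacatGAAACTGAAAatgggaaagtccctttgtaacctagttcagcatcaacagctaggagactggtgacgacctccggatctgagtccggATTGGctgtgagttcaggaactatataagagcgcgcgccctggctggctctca
H2-Aa (chr17:34287824-34288073, minus strand): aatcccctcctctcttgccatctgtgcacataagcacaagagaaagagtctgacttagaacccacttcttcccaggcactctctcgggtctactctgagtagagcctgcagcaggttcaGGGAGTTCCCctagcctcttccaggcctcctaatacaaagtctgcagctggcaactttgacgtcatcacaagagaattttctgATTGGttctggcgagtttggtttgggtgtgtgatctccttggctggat
H2-Eb1 (chr17:34305617-34305866, plus strand): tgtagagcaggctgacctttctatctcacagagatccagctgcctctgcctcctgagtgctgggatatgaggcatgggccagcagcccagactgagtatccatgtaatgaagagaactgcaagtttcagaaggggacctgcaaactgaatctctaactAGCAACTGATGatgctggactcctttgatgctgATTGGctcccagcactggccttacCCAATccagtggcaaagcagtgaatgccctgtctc

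Among the 5 motifs searched on both strands were the X1 box of class II promoters and the Y box (ATTGG or its reverse CCAAT). The others were an interferon response element, a GAS element of interferon-regulated promoters, and a kappa B site. Capitals mark matches to any of the 5, and the GAS element had none in the windows shown. All but the Y box were searched as patterns with some free positions, and the patterns are given here by name with the letters they matched. H2-K1 and H2-D1 both held the kappa B letters GGGGATTCCC, and H2-Aa held a different match to this motif 131 bases before its start. From 50 bases before the site shared by H2-K1 and H2-D1, 105 of 111 aligned bases were identical between both genes (94.6%), and the longest identical run was 47 bases. In H2-Eb1 the X1 box AGCAACTGATG stood 22 bases before an ATTGG. Matches to ATTGG were in 6 of the 7 windows, Psmb8 being the exception, against 33.8% of 32851 promoter windows of the same length. The X1 pattern was in 0.816% of windows, the kappa B pattern in 1.53%, the interferon response pattern in 2.98% and the GAS pattern in 7.02%. Among the 7 windows, B2m alone matched the interferon response pattern, at GAAACTGAAA, and Psmb8 alone the GAS pattern. These are matches of letters and not measured binding.

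Class I transcripts were abundant in all 3 libraries and class II transcripts were scarce. The 5 class I pathway genes together took 0.744% (0.739 to 0.748) of reads with All-EV, 0.523% (0.519 to 0.527) with Ocn-EV and 0.546% (0.543 to 0.550) with Prx1-EV. The 5 class II genes together had 578, 409 and 517 reads, against 115708, 74452 and 94310 of the class I genes. That is 0.4995 (0.460 to 0.542), 0.549 (0.497 to 0.605) and 0.548 (0.502 to 0.598) class II reads per 100 class I reads, and the 3 intervals overlapped. Summed reads are set by the most abundant genes, here B2m, H2-D1 and H2-K1 on one side and H2-Ab1 on the other.

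**Figure D1:**
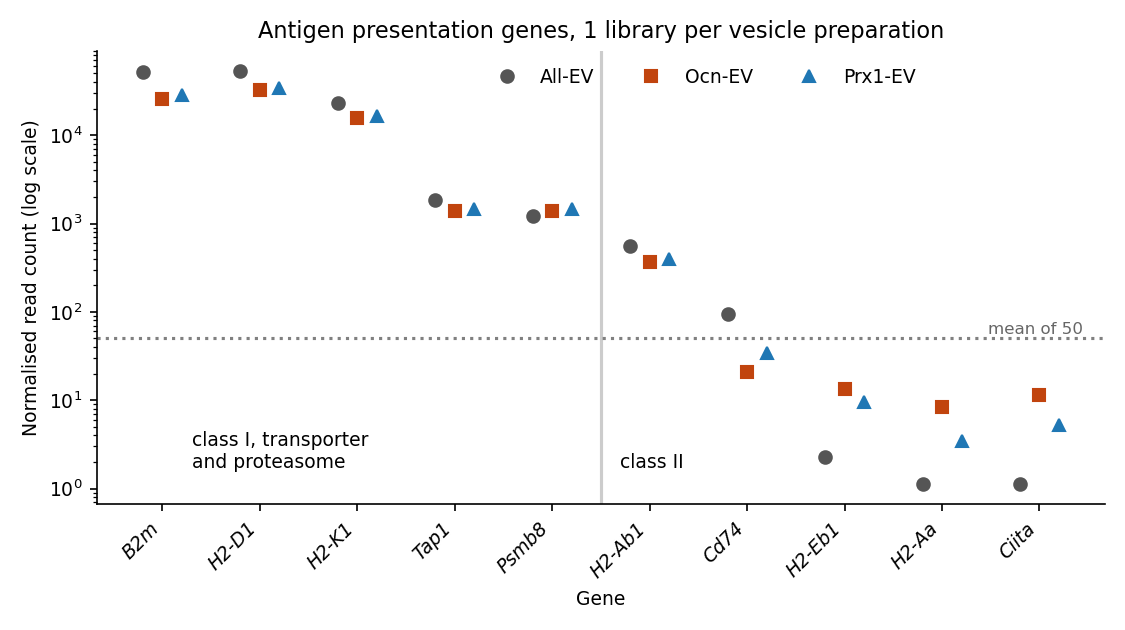
Normalised read count (log scale) of each of the 10 genes in each library, 1 point per library; the dotted line marks the mean of 50 used as a filter. B2m, H2-D1 and H2-K1 lie highest in all 3 libraries, from 15636 upward, while H2-Eb1, H2-Aa and Ciita lie below 50 in all 3.

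Set per kilobase of the longest annotated transcript, the order of the 10 genes was the same in each library. In All-EV, levels per kilobase were 60338 for B2m, 25073 for H2-D1, 12432 for H2-K1, 642 for Psmb8, 467 for Tap1 and 458 for H2-Ab1. Below these came Cd74 at 67.4 per kilobase, H2-Eb1 at 1.36, H2-Aa at 0.351 and Ciita at 0.188. Tap1 and H2-Ab1 were not separated by counting error in All-EV (per-length ratio 1.02, 0.923 to 1.13), nor were H2-Aa and Ciita in any library. Cd74 and H2-Eb1 were not separated in Ocn-EV (1.82, 0.862 to 3.98), nor H2-Eb1 and H2-Aa in All-EV (3.86, 0.201 to 228). The transcript lengths behind this order are those of the longest transcript and may not be the ones expressed.

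B2m, the light chain shared by all class I molecules, had a level of 51891 with All-EV, 25929 with Ocn-EV and 28727 with Prx1-EV. The All-EV library stood highest and the 2 other libraries stood close together. The log2 ratio to All-EV was −1.0 (−1.02 to −0.98) with Ocn-EV and −0.85 (−0.87 to −0.83) with Prx1-EV. The whole annotated span of B2m, 5396 bases, is shared with Patl2, which had levels of 7.92, 17.6 and 1.74. How reads that fit both genes were counted is not stated in the sources used here.

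The classical heavy chains followed the same order of libraries. H2-D1 stood at 52704, 32773 and 34147 across All-EV, Ocn-EV and Prx1-EV, with log2 ratios of −0.69 (−0.71 to −0.66) and −0.63 (−0.65 to −0.61) to All-EV. H2-K1 stood at 23298, 15636 and 16481, with ratios of −0.58 (−0.61 to −0.54) and −0.50 (−0.53 to −0.47). Both were therefore lower with either treated library than with All-EV by more than counting error. The light chain was lower by more than the heavy chains: reads of B2m per read of H2-K1 and H2-D1 together were 0.683 (0.675 to 0.691) with All-EV, 0.536 (0.527 to 0.544) with Ocn-EV and 0.567 (0.560 to 0.575) with Prx1-EV. This ratio within a library does not depend on scaling between libraries. Heavy chain genes are near-identical over long stretches, so their reads may have been split or lost in counting, and values of single H2 genes are uncertain to that extent.

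Tap1 and Psmb8 lie next to each other in the H2 complex and went apart. Tap1, a subunit of the peptide transporter, stood at 1828, 1372 and 1464, with ratios of −0.41 (−0.52 to −0.31) and −0.32 (−0.42 to −0.22). With libraries set to equal totals of reads, the Tap1 ratios were smaller, at −0.157 and −0.095. Psmb8, a catalytic subunit of the interferon-inducible immunoproteasome, stood at 1224, 1379 and 1454, with ratios of 0.17 (0.05 to 0.29) and 0.25 (0.14 to 0.36). Psmb8 was the only class I pathway gene of the 5 that was higher in both treated libraries than in All-EV.

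H2-Ab1, the beta chain of the class II molecule H2-A, was the only class II gene among the 5 with a mean of at least 50. Its level was 555 with All-EV, 370 with Ocn-EV and 399 with Prx1-EV (490, 357 and 457 reads). The log2 ratios were −0.58 (−0.79 to −0.39) and −0.48 (−0.66 to −0.29), close to those of H2-K1. Its partner chain H2-Aa had 1 read with All-EV, 8 with Ocn-EV and 4 with Prx1-EV. The intervals of the H2-Aa log2 ratios included 0 in both comparisons (2.12, −0.03 to 8.34, with Ocn-EV, and 1.07, −1.71 to 7.25, with Prx1-EV). Reads of the 2 chains were therefore far from balanced, with 45 H2-Ab1 reads per H2-Aa read (22.4 to 104) with Ocn-EV and 114 (44.3 to 421) with Prx1-EV. No other annotated gene overlaps H2-Ab1 or H2-Aa.

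Cd74, the invariant chain, was lower in the treated libraries by more than H2-Ab1. Its level was 95.1 with All-EV, 20.7 with Ocn-EV and 34.0 with Prx1-EV, from 84, 20 and 39 reads. The log2 ratio was −2.15 (−2.98 to −1.48) with Ocn-EV and −1.46 (−2.07 to −0.92) with Prx1-EV. Its mean level of 49.9 fell just short of 50, so it stayed outside the summaries. The number of Cd74 reads per 100 H2-Ab1 reads was 17.1 (13.4 to 21.6) with All-EV, 5.60 (3.38 to 8.78) with Ocn-EV and 8.53 (5.99 to 11.8) with Prx1-EV.

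The remaining class II genes were close to the limit of detection. Ciita, the class II coactivator, had 1 read with All-EV, 11 with Ocn-EV and 6 with Prx1-EV, with log2 ratios of 2.54 (0.55 to 8.76) and 1.55 (−0.83 to 7.73). H2-Eb1, the beta chain of H2-E, had 2, 13 and 11 reads, with ratios of 2.15 (0.43 to 5.76) and 1.70 (−0.11 to 5.30). The Ocn-EV intervals of these 2 genes lay above 0, and the Prx1-EV intervals included 0. At such counts the treated libraries held more reads of Ciita, H2-Eb1 and H2-Aa while holding fewer of H2-Ab1 and Cd74. Class II members thus did not move as 1 group, and a median over them depends on which pass the filter. Ciita shares part of its span with Dexi (levels 54.3, 67.3 and 55.0), and the sources used here do not say whether reads were counted by strand.

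**Figure D2:**
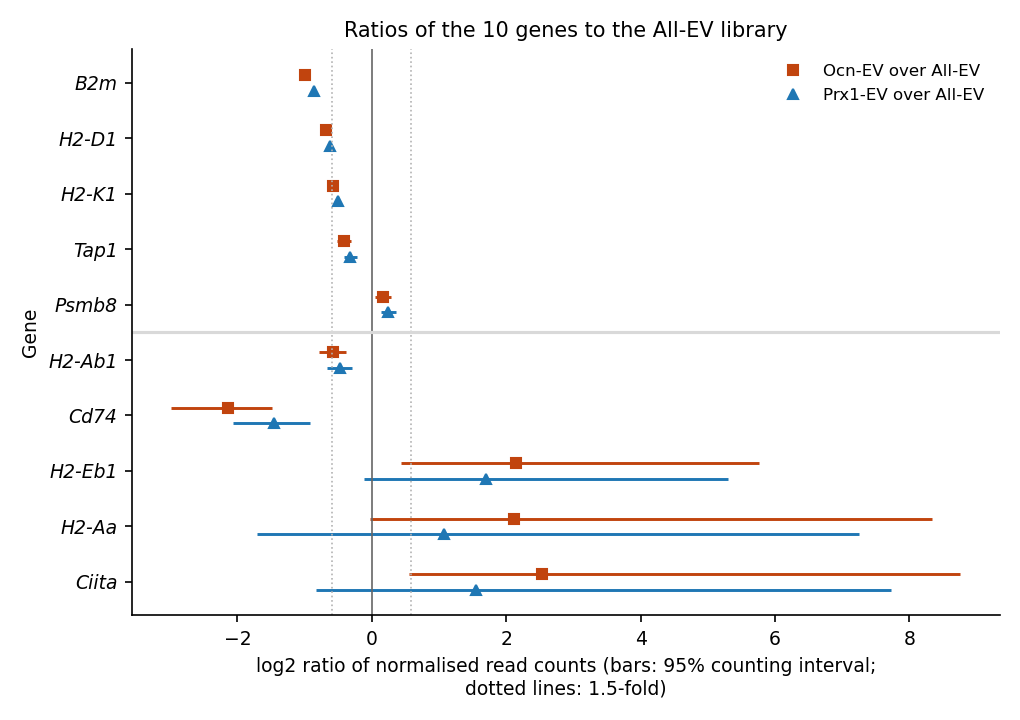
log2 ratio of normalised read counts to the All-EV library for the 10 genes, Ocn-EV as squares and Prx1-EV as triangles, with 95% counting intervals (computed without the added 1) as bars and dotted lines at 1.5-fold. B2m, H2-D1, H2-K1, Tap1, H2-Ab1 and Cd74 lie below 0 in both comparisons, Psmb8 lies above 0, and the bars of H2-Eb1, H2-Aa and Ciita are wide.

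Of the 10 genes, 6 had a mean of at least 50, the 5 class I pathway genes and H2-Ab1. Of these 6, 2 (H2-D1 and B2m) were at least 1.5-fold lower with Ocn-EV than with All-EV, against 13.6% of all genes, and 0 were that much higher, against 13.8%. The same 2 were lower with Prx1-EV, against 12.7% of all genes, and 0 were higher, also against 12.7%. H2-K1 and H2-Ab1 fell just short of that limit with Ocn-EV, both at a log2 ratio of −0.58 against a limit of −0.585. The class I median was −0.58 with Ocn-EV and −0.50 with Prx1-EV, where the median of all 11067 genes was −0.02 and 0.00. The class II value, resting on H2-Ab1 alone, was −0.58 and −0.48. Class II minus class I was therefore −0.01 and 0.02, a difference inside the counting error of H2-Ab1. That likeness depends on Cd74 missing the filter: with a filter of 10, which adds Cd74, the class II medians were −1.36 and −0.97 and the differences −0.79 and −0.47. With libraries set to equal totals of reads, which puts the median of all genes at 0.24 and 0.22, the class I median was −0.32 and −0.27 and B2m alone passed 1.5-fold.

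Both comparisons share the All-EV library, so their likeness is no separate evidence. Between Ocn-EV and Prx1-EV themselves, 0 of the 6 genes at the filter were 1.5-fold apart, against 3.54% of all genes. With no filter 3 of the 10 were (Cd74, H2-Aa and Ciita), all at low counts. The share of all genes without a filter was not computed, so that count has no baseline. The log2 ratio of Ocn-EV to Prx1-EV was −0.15 (−0.17 to −0.12) for B2m, −0.08 (−0.11 to −0.04) for H2-K1 and −0.06 (−0.08 to −0.04) for H2-D1. The intervals of Tap1, Psmb8, H2-Ab1 and Cd74 included 0, the last with a ratio of −0.69 (−1.57 to 0.10).

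Markers of several cell types also differed between the libraries, and their part in the results was not tested. In bulk RNA, fewer cells of a type and less RNA per cell cannot be told apart. Macrophage markers went both ways. Over all genes, 13.8% were at least 1.5-fold higher and 13.6% lower with Ocn-EV, and 12.7% higher and 12.7% lower with Prx1-EV. With Ocn-EV 5 of the 10 macrophage markers were that much higher and 3 lower (median 0.62). With Prx1-EV 3 were higher and 3 lower (median 0.36). The higher ones in both were Mertk (1.34 and 1.34), Mrc1 (0.88 and 0.67) and Fcgr1 (0.68 and 0.65), joined with Ocn-EV by C1qa (1.16, against 0.46 with Prx1-EV) and C1qb (0.93, against 0.44). Lyz2 (−1.44 and −1.79), Itgam (−1.42 and −1.60) and Adgre1 (−0.70 and −0.80) were lower in both. Cd68 had ratios of 0.11 and 0.28, and Csf1r of 0.56 and 0.25. The summed level of the 10 was 229230 with All-EV, 137562 with Ocn-EV and 119860 with Prx1-EV, a fall carried mainly by Lyz2.

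The summed level of 9 stromal markers was 14366, 77854 and 51833. Of the 7 with a mean of at least 50, 6 were at least 1.5-fold higher and 0 lower in each comparison. Over all genes, 13.8% were that much higher with Ocn-EV and 12.7% with Prx1-EV. Thy1, the other marker at the filter, had ratios of 0.53 (0.17 to 0.90) and 0.41 (0.06 to 0.77). The 5 endothelial markers had 615, 946 and 1145 reads in all. Of the 3 at the filter, 2 were at least 1.5-fold higher in each comparison, against 13.8% and 12.7% of all genes. These were Kdr (0.64 and 0.73) and Cdh5 (0.65 and 0.78). The third, Pecam1, had ratios of −0.10 (−0.43 to 0.23) and −0.15 (−0.47 to 0.17). The 5 neutrophil markers had 53, 14 and 8 reads, mainly from S100a8 (36, 7 and 3) and Camp (9, 7 and 5).

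Markers of dendritic, B and T cells had few reads apart from Itgax and Cd4. Of 9 dendritic cell markers only Itgax, which macrophages also carry, had a mean of at least 50 (0.15 and 0.45). Zbtb46 had 2, 10 and 39 reads, with a Prx1-EV ratio of 3.42 (1.96 to 7.01), and Batf3 had 12, 15 and 16. The other 6 had at most 3 reads in any library, with Cd209a and Siglech at 0 in all 3. The 4 B cell markers had 8, 38 and 33 reads, from Cd79a (4, 12 and 3) and Cd79b (4, 26 and 28), with at most 1 read of Ms4a1 or Pax5 in any library. The 6 T cell markers had 27, 77 and 111 reads. Of these Cd4 had 13, 71 and 109 (2.25 and 2.61), Trac 14, 5 and 2, and Cd3g at most 1, while Cd3d, Cd3e and Cd8a had 0 in each library.

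The wider class I family held genes that went opposite ways. Of 18 other class I and class I-like heavy chain genes, 11 had a mean of at least 50. With Ocn-EV 2 of these 11 exceeded All-EV by at least 1.5-fold and 4 fell below it by as much (median 0.08), and with Prx1-EV 1 was higher and 4 lower (median −0.37). Over all genes, 13.8% were higher and 13.6% lower with Ocn-EV, and 12.7% either way with Prx1-EV. The lower 4 were H2-Q4, H2-Q6, H2-Q7 and Cd1d1 in both comparisons. With equal totals 2 were higher and 3 lower with Ocn-EV, and 3 higher and 3 lower with Prx1-EV. H2-Q7, which encodes the class Ib molecule Qa-2, stood at 964 with All-EV, 362 with Ocn-EV and 336 with Prx1-EV, with ratios of −1.41 (−1.60 to −1.23) and −1.52 (−1.70 to −1.35). Its neighbour H2-Q6 stood at 540, 257 and 225, and reads of this pair are hard to separate. Cd1d1, which presents lipids to natural killer T cells, stood at 205, 89.0 and 70.7, with ratios of −1.19 (−1.59 to −0.82) and −1.52 (−1.93 to −1.15).

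H2-T24, a class Ib gene of the H2-T region, went the other way. It stood at 153 with All-EV, 842 with Ocn-EV and 1053 with Prx1-EV, from 135, 813 and 1207 reads, with ratios of 2.45 (2.2 to 2.74) and 2.78 (2.53 to 3.05). Per 100 reads of H2-K1 there were 0.656 reads of H2-T24 (0.550 to 0.777) with All-EV, 5.38 (5.01 to 5.78) with Ocn-EV and 6.39 (6.02 to 6.77) with Prx1-EV. H2-T23, which encodes the Qa-1 ligand of natural killer receptors, stood at 3099, 3754 and 4057, with smaller ratios of 0.28 (0.21 to 0.35) and 0.39 (0.32 to 0.46). Fcgrt, the heavy chain of the neonatal Fc receptor, which also pairs with B2m, stood at 450, 1039 and 645 and was the other gene past 1.5-fold with Ocn-EV (log2 1.20, 1.04 to 1.38).

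**Figure D3:**
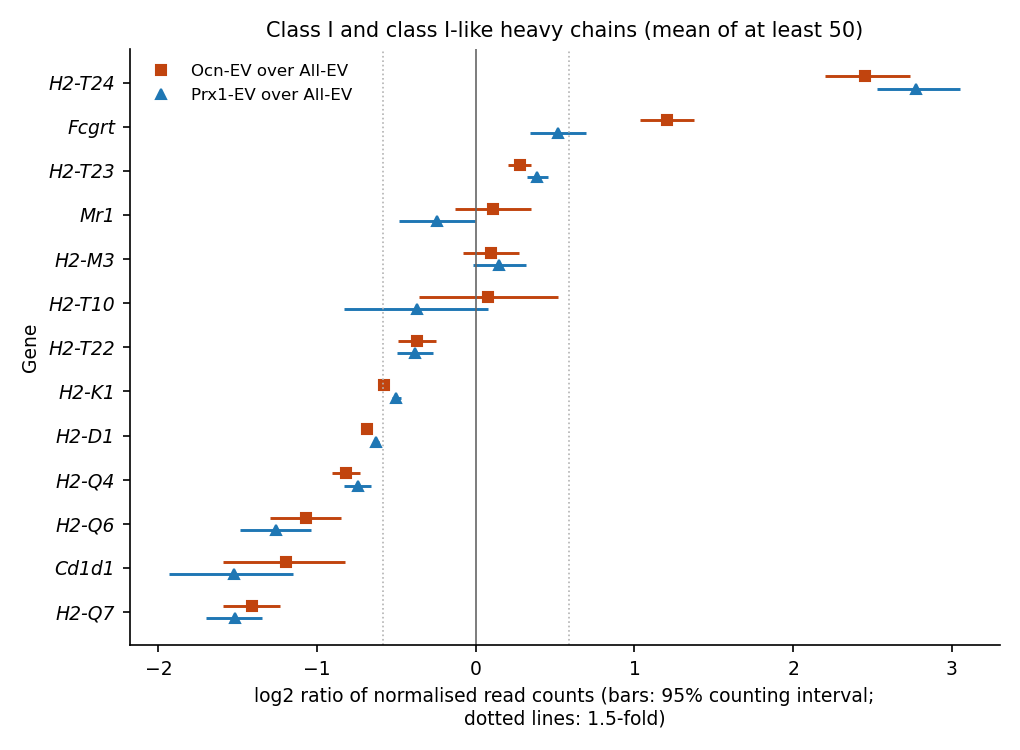
log2 ratio to the All-EV library for H2-K1, H2-D1 and the 11 other heavy chain genes with a mean of at least 50, ordered by the Ocn-EV ratio, with 95% counting intervals as bars and dotted lines at 1.5-fold. H2-T24 lies at 2.45 and 2.78, whereas H2-Q4, H2-Q6, H2-Q7 and Cd1d1 lie beyond 1.5-fold on the lower side in both comparisons.

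Neighbours of these genes in the H2 complex went both ways. Between the outer ends of H2-K1 and H2-D1 (chr17:33996012-35267497), 45 other genes had a mean of at least 50. With Ocn-EV 4 of them were at least 1.5-fold higher and 6 lower (median 0.04), and with Prx1-EV 5 were higher and 7 lower (median −0.01), shares near those over all genes (13.8% and 13.6% with Ocn-EV, 12.7% and 12.7% with Prx1-EV). This interval was chosen after the values of the 10 genes were seen.

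Genes that supply and load peptides included Tapbp and Psmb10, higher in both treated libraries. All 11 listed genes had a mean of at least 50. With Ocn-EV 3 were at least 1.5-fold higher (Tapbp, Tapbpl and Psmb10) and 0 lower (median 0.12), and with Prx1-EV 2 were higher (Tapbp and Psmb10) and 0 lower (median 0.13), against 13.8% and 12.7% of all genes higher. With equal totals or TMM scaling 3 were higher with Prx1-EV. Tapbp encodes tapasin, which holds class I molecules at the transporter, and stood at 2707 with All-EV, 4475 with Ocn-EV and 4442 with Prx1-EV (log2 0.73, 0.65 to 0.80, and 0.71, 0.64 to 0.79). Tap2, the partner of Tap1, stood at 652, 671 and 683, and the intervals of both of its ratios included 0. Reads of Tap1 per read of Tap2 were 2.80 (2.55 to 3.09) with All-EV, 2.04 (1.86 to 2.25) with Ocn-EV and 2.14 (1.97 to 2.34) with Prx1-EV.

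The immunoproteasome subunits replace constitutive ones, so each pair can be compared within a library. Of 8 constitutive proteasome genes, 3 (Psmb5, Psmb7 and Psma3) were at least 1.5-fold lower in each comparison and 0 were higher (medians −0.33 and −0.37), against 13.6% and 12.7% of all genes lower. With equal totals 0 were lower by that amount in either comparison, and with TMM scaling 1 with Ocn-EV, where Psmb7 (−0.574) and Psma3 (−0.580) fell just short. Ratios within a library do not depend on the scaling. Reads of Psmb8 per read of its counterpart Psmb5 were 0.731 (0.675 to 0.791) with All-EV, 1.39 (1.28 to 1.51) with Ocn-EV and 1.42 (1.32 to 1.53) with Prx1-EV. For Psmb10 and Psmb7 they were 0.128 (0.112 to 0.146), 0.354 (0.319 to 0.393) and 0.373 (0.338 to 0.411). For Psmb9 and Psmb6 they were 0.0935 (0.0829 to 0.105), 0.138 (0.123 to 0.154) and 0.148 (0.134 to 0.163). In all 3 pairs the All-EV interval lay below both others, and the Ocn-EV and Prx1-EV intervals overlapped. The constitutive partner was lower in each pair. Psmb9 itself had log2 ratios to All-EV of 0.12 (−0.10 to 0.35) and 0.21 (0.002 to 0.43). Those of Psmb6 were −0.43 and −0.45, and those of Psmb5 −0.76 and −0.71.

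**Figure D4:**
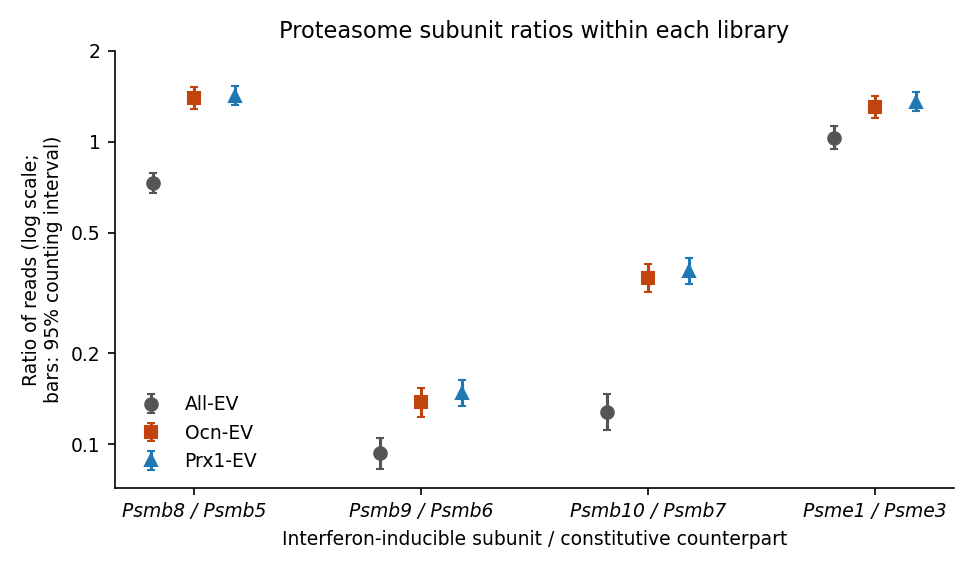
Reads of each interferon-inducible proteasome gene per read of its constitutive counterpart (log scale) in each library, with 95% counting intervals as bars; Psme1 and Psme3 are activator subunits. In all 4 pairs the All-EV library lies lowest, for example 0.731 for Psmb8 over Psmb5 against 1.39 and 1.42.

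Among genes of class II peptide handling, H2-DMa was higher and the proteases Ctss and Ctsl lower in both treated libraries. Of 14 listed genes 10 had a mean of at least 50, and in each comparison 1 of the 10 exceeded All-EV by at least 1.5-fold and 3 fell below it by as much (medians 0.02 and −0.15). Over all genes, 13.8% were higher and 13.6% lower with Ocn-EV and 12.7% either way with Prx1-EV. The higher gene was H2-DMa, a chain of the editor that exchanges class II peptides, at 30.6 with All-EV, 98.4 with Ocn-EV and 70.7 with Prx1-EV (log2 1.65, 1.06 to 2.36, and 1.18, 0.57 to 1.90). Its partner H2-DMb1 stood at 410, 445 and 368, and both of its intervals included 0. Ctss and Ctsl, proteases that degrade the invariant chain, were among the lower genes in both comparisons. Ctss stood at 59782, 30924 and 33863 and Ctsl at 50996, 24857 and 26245. The third lower gene was the costimulatory receptor Cd40 with Ocn-EV (208 in All-EV, 116 in Ocn-EV) and the costimulatory ligand Cd80 with Prx1-EV (93.9 in All-EV, 61.1 in Prx1-EV). With equal totals 2 of the 10 were higher and 2 lower in each comparison, and the medians were 0.27 and 0.07.

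The transcriptional regulators Stat2, Irf1 and Rfx5 were higher in the same 2 libraries in which B2m and the classical heavy chains were lower. Of 15 listed regulators, all with a mean of at least 50, 4 were at least 1.5-fold higher and 0 lower in each comparison (medians 0.27 and 0.38), against 13.8% of all genes higher with Ocn-EV and 12.7% with Prx1-EV. Stat2, which carries the type I interferon signal to the nucleus, stood at 596 with All-EV, 1602 with Ocn-EV and 1391 with Prx1-EV (log2 1.42 and 1.22). Irf1, an interferon-induced activator of class I genes, stood at 384, 627 and 665 (0.71, 0.52 to 0.91, and 0.79, 0.61 to 0.98). Rfx5, which binds the X box, stood at 56.6, 125 and 90.7 (1.13, 0.66 to 1.65, and 0.67, 0.18 to 1.20).

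The fourth gene past 1.5-fold was Irf9 with Ocn-EV and Nfya, a subunit of the factor that binds the Y box, with Prx1-EV. Nlrc5, the class I coactivator, had smaller ratios of 0.25 (0.04 to 0.45) and 0.46 (0.27 to 0.65), at levels of 402, 476 and 553. With equal totals 6 regulators passed 1.5-fold with Ocn-EV and 8 with Prx1-EV, and 0 were lower in either. With upper-quartile scaling 3 passed with Prx1-EV, where Nfya (0.583) fell just short of the limit of 0.585.

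**Figure D5:**
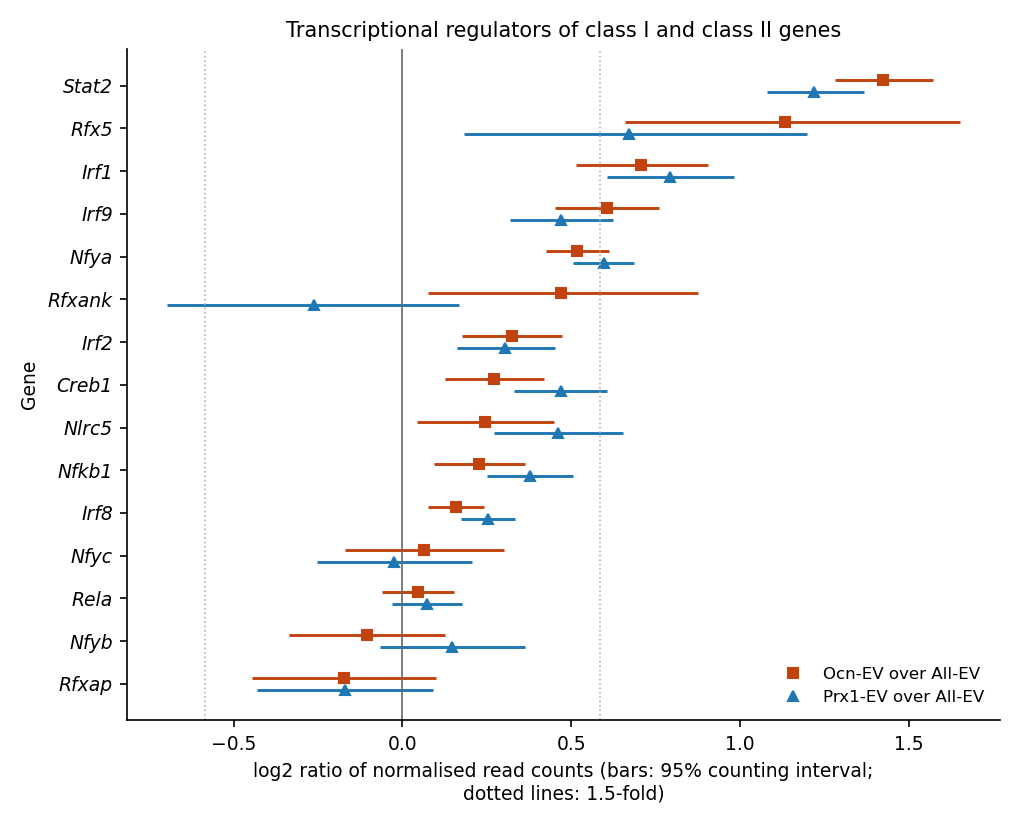
log2 ratio to the All-EV library for the 15 regulators, ordered by the Ocn-EV ratio, with 95% counting intervals as bars and dotted lines at 1.5-fold. Stat2 lies farthest to the right in both comparisons, and no regulator lies beyond 1.5-fold on the lower side.

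Interferon gamma itself was at or near 0. Ifng had 0 reads with All-EV, 1 with Ocn-EV and 0 with Prx1-EV, and the interferon gamma-induced chemokine Cxcl9 had 0 in all 3. Of 12 listed genes of interferon gamma signalling, 7 had a mean of at least 50. With Ocn-EV 3 of the 7 were at least 1.5-fold higher (Ifngr1, Gbp2 and Gbp3) and 1 lower (Socs3), and with Prx1-EV 2 were higher (Ifngr1 and Gbp2) and 1 lower (Socs3), where 13.8% and 12.7% of all genes were higher and 13.6% and 12.7% lower. Gbp2, a guanylate-binding protein gene induced by interferons, stood at 64.5, 166 and 166. Socs3, a feedback inhibitor of cytokine receptors, stood at 242, 96.3 and 100.3.

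By distance over both log2 ratios to All-EV, the 3 genes nearest to H2-K1 were Ramac, Prkcb and Ndufv3, at distances of 0.0054, 0.0072 and 0.0099. Those nearest to Cd74 were Ass1, Slc39a4 and Ptgir, at 0.016, 0.13 and 0.15. This likeness rests on 3 libraries and is only a description.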

How the data were processed

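Messenger RNA of 3 cultures, grouped by treatment label, was sequenced as 150-base read pairs. Per the submitters' processing notes, which give no order or settings, the build was mm10 and the tools included HISAT2 2.2.1, the counter featureCounts 2.0.3 and, as listed there, DESeq2 2.11.40.8. The authors deposited 1 normalised signal value per gene and library. These values were whole multiples of 1 read in 100% of cases (tolerance 1e-06), so reads were recovered. Symbols from RefSeq (GRCm38.p6) matched 25275 of 27179 identifiers, and lengths came from GENCODE transcripts.

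Ratios used a pseudocount of 1, a filter at a mean of 50 and a 1.5-fold limit. Single-gene intervals are exact conditional binomial (Clopper-Pearson) at 95%, as are shares. They cover counting error only, because the reads carry no molecular identifiers and PCR copies count again. Calculations used Python 3.11.15, scipy 1.17.1 and edgeR 4.0.16 (TMM factors only), and were tested on simulated data. An exact binomial test on reads with Benjamini-Hochberg adjustment at 0.05 compares libraries and not conditions; it called 7177 (Ocn-EV over All-EV), 7119 (Prx1-EV over All-EV) and 2872 (Ocn-EV over Prx1-EV) of 11067 genes and sets no direction in the text. Alternatives were 3 other scalings, pseudocounts of 0.5 and 5, and filters of 10, 200 and none.

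The genes, lists and rules were chosen with earlier results of these data known. By rule, the text names the 10 genes, list members at least 2-fold apart from All-EV, members needed to account for small counts, and the 3 genes nearest to H2-K1 and to Cd74. Other genes named were chosen after their values were seen. Some listed genes are not reported here and enter no list count.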

Additional observations from a re-analysis of the deposited data

Results flagged for a closer look

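Cd80, a costimulatory ligand of antigen-presenting cells, lay on opposite sides of All-EV in the 2 treated libraries. Its level was 93.9 with All-EV, 134.6 with Ocn-EV and 61.1 with Prx1-EV, from 83, 130 and 70 reads. The log2 ratios to All-EV were 0.51 (0.11 to 0.93) and −0.61 (−1.10 to −0.14), a difference of 1.13. This difference was not tested, since each group has 1 library.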

How the results depend on the processing

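With 3 libraries and no replicates, no library could be left out. No paired analysis was possible because each group has 1 library and the labels give no replicate numbers. TMM and upper-quartile scaling, pseudocounts of 0.5 and 5 and a filter of 200 left the class I and class II medians, their differences and the counts among the 10 genes past 1.5-fold within counting error or within 1.5 times. TMM took the constitutive proteasome genes lower with Ocn-EV from 3 to 1. With equal totals, the class I medians were −0.32 (Ocn-EV over All-EV) and −0.27 (Prx1-EV over All-EV), the class II values −0.33 and −0.25, and 1 gene passed 1.5-fold in each. With a filter of 10, which adds Cd74 to H2-Ab1, the class II medians were −1.36, −0.97 and −0.40 (the last for Ocn-EV over Prx1-EV), class II minus class I was −0.79, −0.47 and −0.32, and 1 gene passed 1.5-fold between Ocn-EV and Prx1-EV. With no filter, which adds H2-Aa, H2-Eb1 and Ciita with 1 or 2 reads in All-EV, the class II medians turned to 2.12 and 1.07 and were 0.45 for Ocn-EV over Prx1-EV. Class II minus class I was then 2.70, 1.57 and 0.52, and 6, 6 and 3 genes passed 1.5-fold. The share of all genes past 1.5-fold was not computed for a filter of 10 or for no filter. The exact binomial test on reads, added after the data were seen, called 6, 6 and 3 of the genes at the filter, where it called 64.9%, 64.3% and 26.0% of all genes. Of 30 single-gene ratios, equal totals moved 15 beyond their counting intervals. No class II median is given as a result beyond H2-Ab1, because the filter decides its sign.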
